A study of Mus musculus with 14 samples.

Results

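The loci described here are those of 4 mouse genes that mark GABAergic interneurons, Gad1, Gad2, Dlx1 and Dlx2. Chromatin accessibility had been profiled with ATAC-seq, which reads out where a transposase can cut the DNA, in sorted neuronal nuclei of the mouse hippocampus. The members are the regions of the authors' table that overlap 3 windows of the mm9 build, chr2:70370000-70460000 for Gad1, chr2:22455000-22570000 for Gad2 and chr2:71330000-71410000 for Dlx1 and Dlx2 together. Position alone chose them, and they number 27 of 191271 regions, with 12 in the Gad1 window, 6 in the Gad2 window and 9 in the Dlx1 and Dlx2 window.

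All mice were of the strain ArcCreERT2 x R26R-STOP-floxed-eYFP with the genotype +/+, in which a tamoxifen-dependent Cre recombinase driven by Arc switches on a yellow fluorescent protein. All received 4-hydroxytamoxifen ahead of training, on day 0, in contextual fear conditioning, where a foot shock is paired with a place. The libraries titled Early (n = 3) were collected on day 0 without recall, those titled Late (n = 4) on day 5 without recall, and those titled Reactivated (n = 3) after a recall session on day 5, with replicates 1, 2 and 3 labelled as collected on day 5, 6 and 7. The libraries titled Basal (n = 4) carry the same treatment label as Early, shock and collection on day 0, so the labels do not say what sets Basal apart. Tissue of 10 to 12 mice was pooled to reach 10000 nuclei, per the series' design text, which states 3 biological replicates. Nuclei were stained for NeuN, Arc and GFP before sorting. The sources used here do not give which stained nuclei went into which group, or what share of them was GABAergic. In such pooled nuclei, a smaller share of GABAergic nuclei and less accessible chromatin in each of them cannot be told apart.

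GABA is the main inhibitory transmitter of the forebrain, and it is made from glutamate by glutamate decarboxylase. Gad1 and Gad2 encode the 2 forms of this enzyme, GAD67, found throughout the cell, and GAD65, concentrated at nerve terminals. Dlx1 and Dlx2 encode homeodomain transcription factors that direct the formation and migration of interneurons in the embryonic ventral forebrain, and the genes lie close together as a pair. Interneurons are a minority of hippocampal neurons, most of which are glutamatergic principal cells.

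The promoters of the 4 genes are shown because they are the sequences from which these identity genes are read. They come from RefSeq on the GRCm38.p6 build, as 300 bases that span each gene's start, and all 4 symbols had an entry. The windows above are on mm9, so no member was placed on a promoter, exon or intron. Sequences run 5′ to 3′ along the gene's strand, and capitals mark a match on either strand to 1 of 3 motifs, the TATA box, the E-box or the core of the cAMP response element (CRE), whose letters follow below.
Gad1 (chr2:70561879-70562178, plus strand): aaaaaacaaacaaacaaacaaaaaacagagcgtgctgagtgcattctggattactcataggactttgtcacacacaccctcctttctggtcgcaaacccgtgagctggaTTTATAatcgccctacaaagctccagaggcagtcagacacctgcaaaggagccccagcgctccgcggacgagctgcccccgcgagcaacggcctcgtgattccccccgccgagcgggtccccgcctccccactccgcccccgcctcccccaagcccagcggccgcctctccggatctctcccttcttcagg
Gad2 (chr2:22622077-22622376, plus strand): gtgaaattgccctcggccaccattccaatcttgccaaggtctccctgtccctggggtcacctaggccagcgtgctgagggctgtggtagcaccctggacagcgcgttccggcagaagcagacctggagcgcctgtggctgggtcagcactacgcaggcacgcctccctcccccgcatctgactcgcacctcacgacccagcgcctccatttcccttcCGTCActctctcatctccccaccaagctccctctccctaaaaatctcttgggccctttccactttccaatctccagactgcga
Dlx1 (chr2:71529195-71529494, plus strand): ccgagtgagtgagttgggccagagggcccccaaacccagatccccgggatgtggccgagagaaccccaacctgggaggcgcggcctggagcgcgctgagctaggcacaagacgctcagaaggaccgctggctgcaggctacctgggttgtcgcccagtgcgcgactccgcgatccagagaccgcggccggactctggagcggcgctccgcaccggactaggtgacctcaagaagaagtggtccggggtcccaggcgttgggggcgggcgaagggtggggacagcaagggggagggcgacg
Dlx2 (chr2:71546705-71547004, minus strand): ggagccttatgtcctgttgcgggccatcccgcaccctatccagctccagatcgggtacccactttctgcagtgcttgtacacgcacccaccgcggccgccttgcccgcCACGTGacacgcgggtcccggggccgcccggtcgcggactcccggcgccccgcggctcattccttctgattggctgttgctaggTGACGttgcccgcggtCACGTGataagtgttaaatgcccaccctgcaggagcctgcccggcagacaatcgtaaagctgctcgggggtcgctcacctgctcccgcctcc

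The 4 promoters differed in the short motifs they hold. Gad1 had 1 match to TATAAA, the letters of the TATA box, at position 110 of its sequence. This match lies on the strand opposite the gene's, so it is not a TATA box in the direction of Gad1. On either strand, 13.6% of the 32851 RefSeq mouse promoters of this length hold these letters. Dlx2 had 2 matches to CACGTG, an E-box, at positions 109 and 209, against 7.15% of all promoters with at least 1. Gad2 and Dlx2 each had 1 match to TGACG, the core of the CRE, at position 218 in Gad2 and 193 in Dlx2, counted from 1 at the 5′ end, against 20.8%. None of the 4 held the full CRE (TGACGTCA, which overlaps its core), found in 1.79% of promoters. None held the AP-1 motif (TGANTCA), found in 7.81%, or a core bound by homeodomain proteins (TAATTA), found in 5.29%. Dlx1 held no match to any of the 6 motifs. All 4 were rich in G and C, with 60.0% in Gad1, 61.3% in Gad2, 69.3% in Dlx1 and 66.3% in Dlx2, above the median of 52.7% over all promoters. A match is a description of letters and says nothing of binding in these nuclei.

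In RefSeq's gene order, Gad1 lies between Erich2 and Gorasp2 and shares its start with the antisense gene Gad1os, Gad2 lies between Myo3a and Apbb1ip, and Dlx1 lies between Metap1d and Dlx2 beside the antisense gene Dlx1as. A member may therefore belong to a neighbour, and the label of the loci could be checked only against the members themselves, since the table carries no gene names. Read totals recovered from the deposited RPKM values (the reads of a region divided by its length and by the read total of the library) were 46134253 to 56251676, with the 4 Late libraries lowest at 46134253 to 47375212. Reactivated replicate 1 was highest, and all Basal and Early libraries and Reactivated replicates 2 and 3 lay between 54257222 and 54269492. Why these totals lie so close together was not tested, so they may not be the original sequencing depths. The share of reads inside regions was 13.8%, 27.8% and 18.1% in Early replicates 1, 2 and 3, 18.4% to 20.0% in Late, 21.3% to 24.0% in Reactivated and 13.2% to 19.3% in Basal. The highest region of a library held 0.635 to 0.738 reads per base in Late and 2.14 to 9.75 in the other 10 libraries, so the Late libraries stood apart in how their highest values were distributed. The part of these differences in the results below was not tested beyond the alternatives given.

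None of the members was among the most accessible regions of the table. The mean RPKM of a member over the 14 libraries was 0.0947 to 2.03 with a median of 1.24, and 10 of the 27 lay above the table's median of 1.31, 6 in its top 25% and 0 in its top 10%. Member lengths were 140 to 1494 bases with a median of 509 bases, against 520 bases over the table. The table gives no value of 0, and its floor is 1 read. The Gad2 region chr2:22534013-22534216 stood at 1 read in all 14 libraries, as did 1559 regions (0.815% of the table). It and the Gad1 regions chr2:70419497-70420388 and chr2:70450077-70450303 fell among the 10% of regions of lowest mean RPKM, which were left out of the test. The 24 members tested held 3 to 193 reads per library.

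The mean RPKM over all members of a window gave the order of the groups for each locus, as a description without a test. At Gad1 it was 1.08 ± 0.433 in Early (SD, n = 3), 1.30 ± 0.0441 in Late (n = 4), 1.71 ± 0.156 in Reactivated (n = 3) and 1.39 ± 0.211 in Basal (n = 4). At Gad2 it was 0.996 ± 0.297 in Early, 0.978 ± 0.133 in Late, 1.53 ± 0.273 in Reactivated and 1.06 ± 0.135 in Basal. At Dlx1 and Dlx2 it was 0.922 ± 0.297 in Early, 1.21 ± 0.167 in Late, 1.56 ± 0.426 in Reactivated and 1.18 ± 0.209 in Basal. Reactivated was highest at all 3 loci on this scale and Early or Late lowest, and neighbours in each order overlapped in their libraries.

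The same levels were also divided by the median RPKM of the tested regions in each library. Relative to that median, the Gad1 members stood at 0.561 to 0.916 in Early, 0.886 to 0.936 in Late, 1.09 to 1.19 in Reactivated and 1.09 to 1.37 in Basal. The Gad2 members stood at 0.666 to 0.753 in Early, 0.582 to 0.823 in Late, 0.793 to 1.23 in Reactivated and 0.847 to 1.05 in Basal. The Dlx1 and Dlx2 members stood at 0.608 to 0.685 in Early, 0.728 to 1.02 in Late, 0.754 to 1.29 in Reactivated and 0.962 to 1.17 in Basal. On this relative scale every Early library lay below every Basal library at all 3 loci, every Late library lay below every Basal library at Gad1 and Gad2, and Reactivated overlapped Basal at all 3. How many other regions or windows of the table separate in this way was not counted, so the separation is not shown to be particular to these loci. The median used as divisor does not simply follow the share of reads in regions. That share was 19.3% in Basal replicate 1 and 18.4% in Late replicate 1, with medians of 1.28 and 1.38 RPKM. Levels divided by the share itself were not computed, and the groups could separate or overlap differently on that scale. Against deposited RPKM the order of Reactivated and Basal turned at 2 of the 3 loci. The relative means were 1.14 ± 0.0518 in Reactivated and 1.26 ± 0.119 in Basal at Gad1, and 1.04 ± 0.268 in Reactivated and 1.06 ± 0.0897 in Basal at Dlx1 and Dlx2, while at Gad2 Reactivated stayed higher, with 1.02 ± 0.220 against 0.958 ± 0.0860 in Basal.

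**Figure D1:**
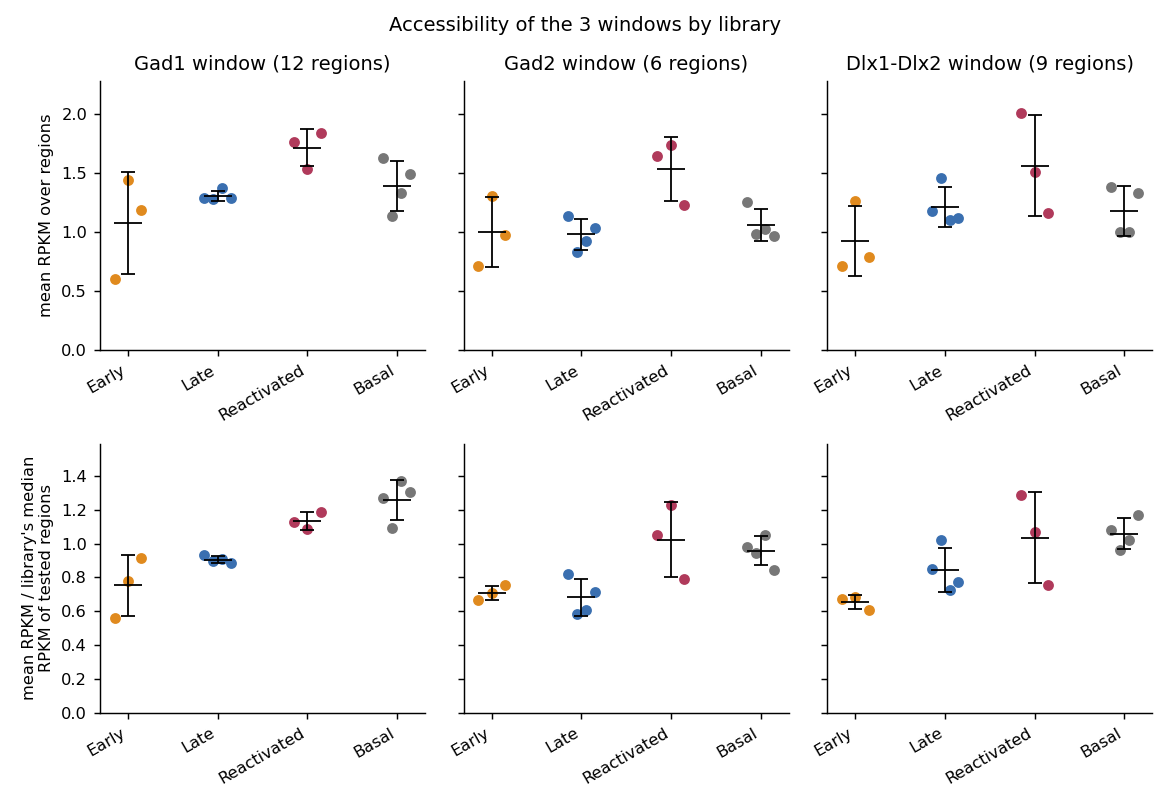
Points are libraries, bars the mean ± SD, with Early, Late, Reactivated and Basal from left to right. The upper row plots the mean RPKM over a window's members and the lower row that value divided by the library's median RPKM of tested regions, where each Early library lies below each Basal library in all 3 windows. How often other windows do so was not counted.

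Each member was compared between groups by limma on log2(RPKM + 0.5), fitted across all 172143 tested regions, with Benjamini-Hochberg adjusted p under 0.05 as the call. The scale understates fold changes of low regions, and fold changes are given as log2 ± the moderated standard error. Where members above 0 are counted, the share of all tested regions above 0 was not counted. Early, Late and Reactivated were all set against the same 4 Basal libraries, so these comparisons are not independent of each other. Statements that groups do or do not overlap describe the values the test used, and at called members add no support to the call. How many regions of the table separate in this way was not counted.

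Early against Basal sets 2 groups with the same treatment label beside each other, so it is not shown to be a comparison with untrained mice. At the loci of the GABA-making enzymes 2 Gad1 members were lower in Early, and no member at any locus was higher. Among the 24 tested members 0 were called higher and 2 lower, against 10.9% of all tested regions higher and 1.44% lower. The median log2 fold change of members was -0.31, against 0.23 over all tested regions, with 9 of 24 above 0. By locus the median was -0.48 at Gad1 (2 of 10 called), -0.05 at Gad2 (0 of 5) and -0.13 at Dlx1 and Dlx2 (0 of 9). When the fit was made without Early replicate 1, the library with 13.8% of its reads in regions, 2 members were called higher, chr2:22535395-22535734 at Gad2 (limma adjusted p = 0.0312) and chr2:70431528-70432037 at Gad1 (0.0396), and 2 lower. The share of all regions called in that fit was not counted.

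The Gad1 region chr2:70406828-70407152 had 0.228, 0.512 and 0.967 RPKM in Early replicates 1 to 3, against 1.88, 1.25, 1.48 and 1.08 RPKM in Basal replicates 1 to 4. Every Early library lay below every Basal library, and the fold change was -0.89 ± 0.24 (limma adjusted p = 0.0235). The call was lost without Early replicate 1 (0.0638) or 2 (0.103), without Basal replicate 1 (0.0541) or 3 (0.0606) and in a fit of the 2 groups alone (0.0660). The Gad1 region chr2:70401514-70402049 had 1.10, 0.620 and 1.03 RPKM in Early, against 2.03, 1.21, 2.20 and 3.13 RPKM in Basal. The groups did not overlap, Basal replicate 4 was highest, and the fold change was -0.87 ± 0.25 (limma adjusted p = 0.0277). This call was lost without Early replicate 2 (0.152), without Basal replicate 3 (0.0674) or 4 (0.0810) and in 5 other settings, among them a fit without the Late libraries (0.0605).

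Just before both lies the longest member, chr2:70400008-70401502, with 0.691, 0.950 and 0.925 RPKM in Early, against 2.08, 1.44, 1.49 and 1.32 RPKM in Basal. The groups did not overlap, and the fold change of -0.61 ± 0.20 missed the call (limma adjusted p = 0.0505). By distance, from 1.4 kb before the middle of the longest member to 6.2 kb after it, the 4 Gad1 members had log2 fold changes of -0.59 to -0.89, the member 25.6 kb after it had -0.68, and the 4 members 30.0 to 38.5 kb after it had -0.38 to 0.37. The highest Gad1 member, 4.4 kb before it, had -0.27.

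**Figure D2:**
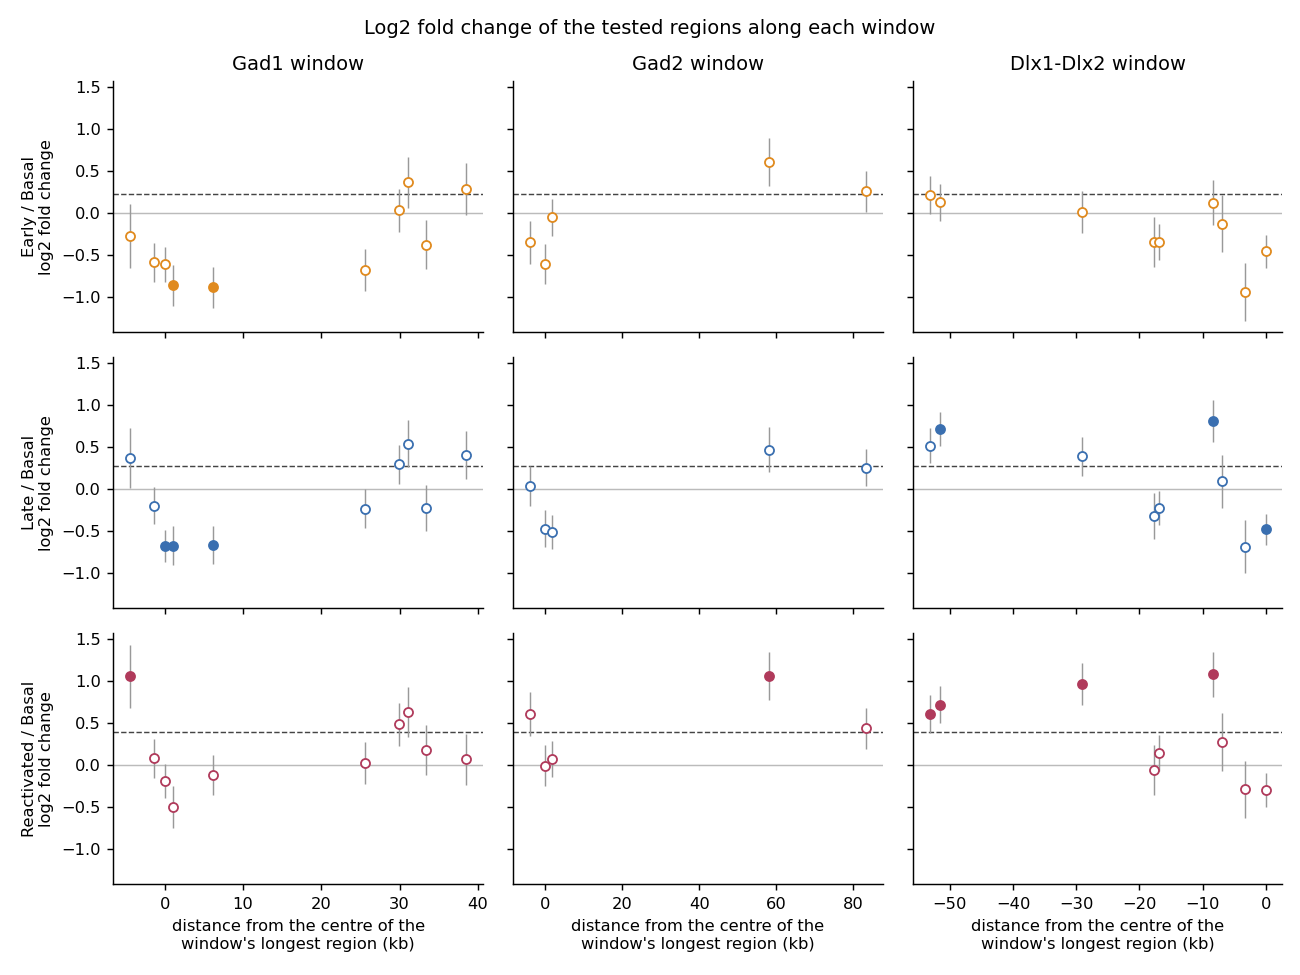
Each point is a tested member, placed in kb from the centre of its window's longest member, with its log2 fold change against Basal and standard error; filled points have an adjusted p under 0.05 and the dashed line is the median of all tested regions. The filled points at Gad1 lie below 0 within 6.2 kb of the longest member in Early and Late, and all 6 filled points of Reactivated lie above 0.

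**Figure D3:**
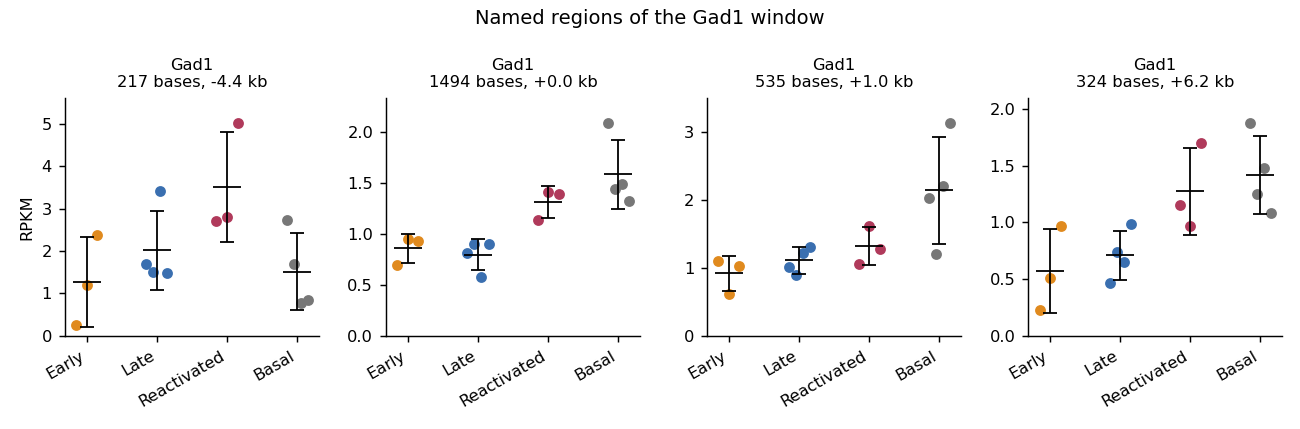
RPKM of the 4 named Gad1 members, one panel each, titled by length and distance from the longest member, with points for libraries and bars for the mean ± SD. At the 3 members from 0 to 6.2 kb the Early and Late libraries are low, with at most 1.31 RPKM in each, while Basal libraries hold at least 1.08 RPKM.

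Late against Basal sets nuclei collected on day 5 without recall beside Basal. The calls went both ways: 3 members of the Gad1 window were lower in Late, and in the Dlx1 and Dlx2 window 2 members were higher and 1 was lower. The 2 higher members lie 51.6 and 8.4 kb before the longest member of that window, and no member was assigned to a gene. Among the 24 tested members 2 were called higher and 4 lower, against 23.9% of all tested regions higher and 6.03% lower. The median log2 fold change of members was -0.08, against 0.28 over all tested regions, with 12 of 24 above 0. By locus the median was -0.21 at Gad1, 0.04 at Gad2 and 0.09 at Dlx1 and Dlx2.

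The longest Gad1 member, chr2:70400008-70401502, had 0.807, 0.899, 0.579 and 0.897 RPKM in Late replicates 1 to 4, against 2.08, 1.44, 1.49 and 1.32 RPKM in Basal. Every Late library lay below every Basal library, and the fold change was -0.68 ± 0.19 (limma adjusted p = 0.0110). It passed in 23 of 24 alternative settings. The exception averaged the 4 Late libraries to 1 sample (0.368), which ended all 6 calls of this comparison.

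The neighbouring Gad1 regions were lower as well. Region chr2:70401514-70402049 had 1.01, 0.891, 1.22 and 1.31 RPKM in Late, against 2.03, 1.21, 2.20 and 3.13 RPKM in Basal, a fold change of -0.67 ± 0.23 (limma adjusted p = 0.0304). Region chr2:70406828-70407152 had 0.465, 0.736, 0.651 and 0.985 RPKM in Late, against 1.88, 1.25, 1.48 and 1.08 RPKM in Basal, a fold change of -0.67 ± 0.23 (limma adjusted p = 0.0297). The groups overlapped at the first, through Basal replicate 2, and did not at the second. Each of these 2 calls held in 17 of 24 settings, and each was lost without Basal replicate 3 or Late replicate 1, 2 or 3, the first also without Basal replicate 4 and the second also without Basal replicate 1 (adjusted p 0.0518 to 0.113).

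The Dlx1 and Dlx2 window held calls in both directions. Region chr2:71332535-71333329, whose middle lies 51.6 kb before that of the longest Dlx member, had 1.36, 1.20, 1.17 and 1.47 RPKM in Late, against 0.766, 0.557, 0.511 and 0.557 RPKM in Basal. Every Late library lay above every Basal library, and the fold change was 0.72 ± 0.20 (limma adjusted p = 0.0128). It too passed in 23 of 24 settings, and the averaged Late sample alone ended it (0.371).

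Region chr2:71375975-71376381, 8.4 kb before the longest Dlx member, had 1.01, 2.14, 1.30 and 1.15 RPKM in Late, against 0.408, 0.545, 0.499 and 0.817 RPKM in Basal. The groups did not overlap, Late replicate 2 stood highest, and the fold change was 0.81 ± 0.25 (limma adjusted p = 0.0187). The call was lost without Late replicate 2 (0.0758) and after median-of-ratios scaling (0.120) or quantile normalization (0.153).

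The longest Dlx member itself, chr2:71383937-71385137, had 0.754, 1.16, 0.950 and 0.940 RPKM in Late, against 1.78, 1.32, 1.41 and 1.58 RPKM in Basal. Every Late library lay below every Basal library, and the fold change was -0.48 ± 0.18 (limma adjusted p = 0.0493). The call held in 10 of 24 settings, and leaving out any 1 library of Late or Basal ended it (0.0544 to 0.137), as did leaving out Early replicate 3 or any 1 Reactivated library (0.0527 to 0.0595).

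Reactivated against Basal sets nuclei collected after recall beside Basal. All calls in these windows were in the higher direction, 4 in the Dlx1 and Dlx2 window and 1 each in those of Gad1 and Gad2. The 4 lie 8.4 to 53.2 kb before the longest Dlx member and may belong to a neighbouring gene. Among the 24 tested members 6 were called higher and 0 lower, against 24.3% of all tested regions higher and 4.78% lower, so the share of members called higher was near that of the table. The median log2 fold change of members was 0.16, against 0.39 over all tested regions, with 17 of 24 above 0. By locus the median was 0.08 at Gad1, 0.44 at Gad2 and 0.27 at Dlx1 and Dlx2.

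The largest fold change was at the Dlx region chr2:71375975-71376381, with 2.93, 1.91 and 0.863 RPKM in Reactivated replicates 1 to 3, against 0.408, 0.545, 0.499 and 0.817 RPKM in Basal. The groups did not overlap, Reactivated replicate 3 was close to the highest Basal library, and the fold change was 1.08 ± 0.27 (limma adjusted p = 0.00856). The Dlx region chr2:71355159-71355832, 29.0 kb before the longest Dlx member, had 2.30, 1.45 and 1.53 RPKM in Reactivated, against 0.712, 0.602, 0.657 and 0.602 RPKM in Basal. All 3 Reactivated libraries stood well above all 4 Basal libraries there, and the fold change was 0.97 ± 0.25 (limma adjusted p = 0.0105).

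The 2 members at the far end of the Dlx window were also called. Region chr2:71332535-71333329 had 1.54, 1.14 and 1.25 RPKM in Reactivated, against 0.766, 0.557, 0.511 and 0.557 RPKM in Basal, a fold change of 0.72 ± 0.22 (limma adjusted p = 0.0215). Region chr2:71330879-71331752 had 2.02, 1.31 and 0.887 RPKM in Reactivated, against 0.633, 0.802, 0.591 and 0.844 RPKM in Basal, a fold change of 0.61 ± 0.23 (limma adjusted p = 0.0470). Neither overlapped between the groups, and at the second Reactivated replicate 3 was again close to Basal. The same library stood above Reactivated replicate 2 at chr2:71332535-71333329 and chr2:71355159-71355832, and was the highest at the Gad1 region chr2:70396259-70396476. Collection day and replicate cannot be told apart in Reactivated. The call at chr2:71330879-71331752 held in 8 of 25 settings and was lost without any 1 Basal or Late library, without Early replicate 3 and without Reactivated replicate 1 or 2 (0.0530 to 0.239).

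At Gad2 the called member was chr2:22535395-22535734, 58.0 kb after the longest Gad2 member, with 2.20, 2.07 and 1.52 RPKM in Reactivated, against 0.978, 0.217, 0.598 and 1.03 RPKM in Basal. The groups did not overlap, and the fold change was 1.06 ± 0.29 (limma adjusted p = 0.0131, or 0.0507 without Basal replicate 2). At Gad1 the called member was chr2:70396259-70396476, the one of highest mean RPKM in its window, with 2.70, 2.80 and 5.01 RPKM in Reactivated, against 2.72, 1.70, 0.764 and 0.849 RPKM in Basal. Reactivated replicate 1 lay just below Basal replicate 1, and the fold change was 1.06 ± 0.38 (limma adjusted p = 0.0415). This call held in 11 of 25 settings and was lost without any 1 Reactivated library or Basal replicate 2, 3 or 4 (0.0556 to 0.178).

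The remaining calls of this comparison also leaned on single libraries. Without Reactivated replicate 1 the calls at chr2:71375975-71376381 (0.0554), chr2:71355159-71355832 (0.0512) and chr2:71332535-71333329 (0.0786) were lost, and the last was lost too without Reactivated replicate 3 (0.0600) or Basal replicate 3 (0.0552), and narrowly without the Late libraries. With a covariate for how much of a library lay in regions, none of the 6 passed (0.169 to 0.725). That share was 21.3% to 24.0% in Reactivated and 13.2% to 19.3% in Basal, and its part in the 6 calls was not tested further.

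**Figure D4:**
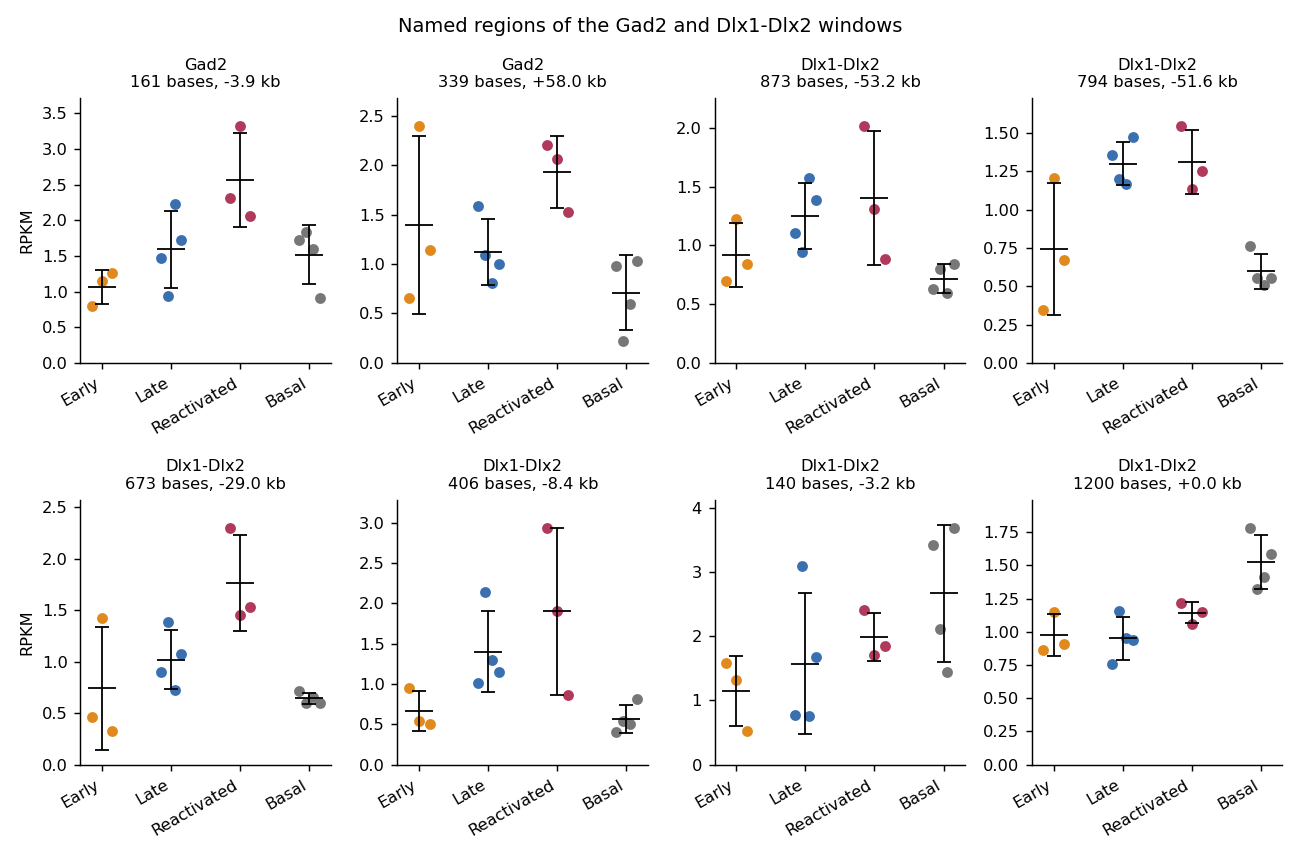
RPKM of the 8 named members of the Gad2 and Dlx1-Dlx2 windows, one panel each, titled by length and distance from the window's longest member, with points for libraries and bars for the mean ± SD. In the 4 called Dlx panels from -53.2 to -8.4 kb all Reactivated libraries lie above all Basal libraries, and in the 1200-base panel all Early, Late and Reactivated libraries lie below all Basal libraries. The 4 were picked by their calls in these same libraries, so their separation is no further support. How many other regions separate in this way was not counted.

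Scaling moved the balance of the calls against Basal. Median-of-ratios scaling brought the median log2 fold change of all tested regions to -0.01 for Early, 0.00 for Late and 0.03 for Reactivated, from the medians given above. In Early 0 members were then called higher and 9 lower, against 8.16% and 7.11% of all regions, and the member median was -0.56. In Late 1 was called higher and 9 lower, against 15.2% and 16.1%, with a member median of -0.37. In Reactivated 1 was called higher and 3 lower, against 8.77% and 10.9%, with a member median of -0.24, so its direction turned, although the Gad2 median stayed above 0 at 0.11. Of the 9 lower in Early, 5 were at Gad1, 1 at Gad2 and 3 at Dlx1 and Dlx2, and of the 9 lower in Late 4 were at Gad1, 2 at Gad2 and 3 at Dlx1 and Dlx2. The 1 member still higher in Reactivated was chr2:71355159-71355832 and the 1 higher in Late was chr2:71332535-71333329.

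The longest members behaved alike in Early and Late. The 4 members of 1000 bases or more, a width chosen after their values were seen, are chr2:70400008-70401502 at Gad1, chr2:22476973-22478209 at Gad2, and chr2:71367196-71368223 and chr2:71383937-71385137 at Dlx1 and Dlx2. Their log2 fold changes were -0.61, -0.61, -0.34 and -0.46 in Early and -0.68, -0.48, -0.22 and -0.48 in Late, each against Basal and in that order. All 8 were below 0, while the median of all tested regions of this width was 0.21 in Early and 0.25 in Late. The 8 values come from 4 members set against the same Basal libraries, and the share of regions of this width below 0 was not counted. In Reactivated against Basal the same members had -0.19, -0.01, 0.15 and -0.30, none called, with a median of 0.46 over regions of this width. In Early 0 of the 4 were called lower, against 1.15% of regions of this width, and in Late 2 of the 4, against 1.54%. The Gad2 member of this set had 0.939, 1.22 and 1.06 RPKM in Early and 1.41, 1.26, 0.820 and 1.46 RPKM in Late, against 2.30, 1.70, 2.01 and 1.61 RPKM in Basal. Both groups lay below every Basal library there and both missed the call (limma adjusted p = 0.0927 in Early and 0.104 in Late).

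Reactivated against Late sets libraries collected on day 5, 6 and 7 after recall beside libraries collected on day 5 without it, so only Reactivated replicate 1 shares the collection day of Late. No member was called in either direction, against 0.0256% of all tested regions higher and 0.205% lower. An unadjusted p under 0.05 was found for 5 of the 24, against 19532 of all 172143 tested regions. The median log2 fold change of members was 0.28, against 0.09 over all tested regions, and 23 of 24 were above 0. Late against Early also gave 0 calls, against 0.31% higher and 0.103% lower, with a median of 0.20, against 0.02. There 3 members had an unadjusted p under 0.05, against 22006 of the 172143 regions, a share near that of the table. Reactivated against Early gave 0 calls, against 0.944% higher and 0.417% lower, with a median of 0.47, against 0.11. There 10 members had an unadjusted p under 0.05, against 33513 of the 172143 regions. By limma voom on the recovered reads, the other test run, the 3 comparisons gave 0, 0 and 2 calls. Without Early replicate 2, which had 27.8% of its reads in regions, Reactivated against Early gave 6 calls and Late against Early 2, all higher than Early. The median of all tested regions also rose in that fit, to 0.31 for Reactivated against Early and 0.22 for Late against Early. The share of all regions called was not counted for that fit or for voom.

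The members of highest mean RPKM were short and varied between libraries. At Gad2, chr2:22473579-22473740 had 0.801, 1.15 and 1.26 RPKM in Early, 1.47, 0.942, 2.23 and 1.72 in Late, 2.32, 3.32 and 2.06 in Reactivated, and 1.72, 1.83, 1.60 and 0.916 in Basal. All 3 Reactivated libraries lay above all Early and Basal libraries, without a call (limma adjusted p = 0.0697 for Reactivated against Early and 0.0736 for Reactivated against Basal). At Dlx1 and Dlx2, chr2:71381230-71381370 had 1.58, 1.32 and 0.526 RPKM in Early, 0.769, 3.10, 0.754 and 1.67 in Late, 2.41, 1.71 and 1.84 in Reactivated, and 3.42, 2.11, 1.45 and 3.69 in Basal. Basal replicates 1 and 4 and Late replicate 2 were highest, and 0 comparisons passed.

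The Gad1 region chr2:70450077-70450303, with 1 to 13 reads per library, was too low for the test. When low regions were kept it passed for Reactivated against Basal (log2 fold change 0.78, limma adjusted p = 0.0250), while chr2:70396259-70396476 then missed (0.0531), so the count stayed at 6. The passing region had 1, 1, 1 and 2 reads in Basal, at or next to the floor of 1 read, against 2, 13 and 7 in Reactivated. Its spread in Basal is therefore hardly measured.

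The regions elsewhere whose pattern over the 14 libraries was most like that of each window's highest member were found by Pearson r of log2(RPKM + 0.5) minus each library's median, as a description over points that share library and depth. For the Gad1 region chr2:70396259-70396476 they were chr9:99481079-99481366 (r = 0.899), chr2:170564006-170564358 (0.896) and chr13:94488653-94489162 (0.894). For the Gad2 region chr2:22473579-22473740 they were chr17:35772693-35773020 (0.942), chr3:138662357-138663067 (0.905) and chr7:28386758-28387103 (0.899). For the Dlx region chr2:71381230-71381370 they were chr18:12189996-12190386 (0.938), chr4:152002213-152002747 (0.905) and chr6:121037162-121038117 (0.903).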

How the data were processed

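Per the labels' protocols, nuclei of hippocampal tissue were stained, sorted and subjected to ATAC-seq. The authors deposited RPKM values for 191271 regions and 14 libraries. The submitters' processing notes list, without saying what each did, Bowtie2 2.0, SAMtools, MACS2, DiffBind 1.16.327 and DESeq2, and the mm9 build. The sources used here do not give the handling of duplicates, any shift of cut sites, or whether regions were called on separate or pooled libraries. Each could change borders and values. Coordinates are as deposited, with starts counted from 0 or from 1, which the sources used here do not give.

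RPKM times length gave whole multiples of 1 step per library (100% of values within 0.01), from which reads and totals were recovered. The 10% of regions of lowest mean RPKM were left out. The other 172143 entered limma 3.58.1 (R 4.3.3) on log2(RPKM + 0.5), with intensity trend, robust moderation and group means of all 14 libraries. Tests were 2-sided, adjusted by Benjamini-Hochberg within each of 6 comparisons over all tested regions, at a threshold of 0.05. The procedure was tested on simulated reads, drawn at the same rate per read total in every library apart from the fold changes put in. That test says nothing of libraries that differ in their share of reads in regions, as these do. Python 3.11.15 with pandas 2.3.3, numpy 2.4.6 and matplotlib 3.10.9 did the rest.

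Members, lists and tests were chosen with earlier results of these data known. Members printed with every library's value are the highest by mean RPKM in each window and every called one, and the Gad2 region chr2:22476973-22478209 was added after its values were seen. The labels do not tie libraries to animals, so p-values measure the spread between libraries, part of which may be technical. Markers of other cell types and other GABAergic genes were not used, because an mm9 annotation was not used here. The 0.5 pseudocount, filter, scaling, fitted libraries, covariate, replicate block and each library were varied.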

Additional observations from a re-analysis of the deposited data

Results flagged for a closer look

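Of 30 groups of 4 libraries whose values were checked for a library far from the others, 2 held one, and chance gives about 1 in 20. At the Gad1 region chr2:70396259-70396476, Late replicate 3 had 3.40 RPKM, against 1.47 to 1.69 RPKM in the other 3 Late libraries. The mean RPKM over the 12 Gad1 members was 1.37 in the same library, against 1.27 to 1.29 in the other 3. That region is among the members averaged, so the second value is not separate from the first.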

How the results depend on the processing

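Values are numbers of called members of 24, where the reported fit gave 2 for Early against Basal, 6 for Late against Basal, 6 for Reactivated against Basal and 0 for each of the other 3 comparisons. Shares of all regions called were counted only for the reported fit and for median-of-ratios scaling. For Early against Basal, median-of-ratios scaling gave 9, quantile normalization 7, the 2 groups alone 0, the share of reads in regions as covariate 4, Late averaged to 1 sample 1, and 2 alternatives added after seeing the data gave 1 (without the Late libraries) and 4 (limma voom). For Late against Basal, median-of-ratios scaling gave 10 and Late averaged to 1 sample 0. For Reactivated against Basal, quantile normalization gave 2, both lower, in place of the 6 higher, the covariate 0 and the fit without the Late libraries 3. The covariate gave 1 for Late against Early, and voom 2 for Reactivated against Early. The cause of these moves was not tested, except that averaging or leaving out libraries leaves fewer samples in the fit. Pseudocounts of 0.1 and 1 and no filter kept every count within 1.5 times. Leaving out 1 library gave 0 to 4 for Early against Basal, 3 to 8 for Late against Basal, 1 to 7 for Reactivated against Basal, 0 to 0 for Reactivated against Late, 0 to 2 for Late against Early and 0 to 6 for Reactivated against Early. The count moved by over 1.5 times without Basal replicate 1 (1), 3 (0) or 4 (1) or Early replicate 1 (4, of which 2 were higher) or 2 (0) in Early against Basal, without Basal replicate 3 (3) or Late replicate 2 (3) or 3 (3) in Late against Basal, and without Basal replicate 2 (3) or 3 (3) or Reactivated replicate 1 (1) in Reactivated against Basal. With the replicate number as a block the counts against Basal were 1 in Early, 5 in Late and 4 in Reactivated. Same-numbered libraries of different groups did not deviate together (r = -0.26 to 0.07 over 19 pairs, and 0 libraries correlated best with their own number). The reported fit therefore did not use the number as a pairing. These correlations cannot show whether same-numbered libraries were prepared together, which the labels do not say. None of the 14 calls changed sign under any alternative. A planned count test on the recovered reads was not run, because the deposited unit is RPKM. Tested members held 3 to 193 reads per library, which limits the short members most.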
